A study of Mus musculus with 20 samples.

Results

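The bone morphogenetic protein (BMP) genes described here are 3 ligands (*Bmp2*, *Bmp4* and *Bmp6*), 3 secreted antagonists (*Grem1*, *Nog* and *Chrdl1*) and 3 Id transcription regulators (*Id1*, *Id2* and *Id3*). These 9 genes were chosen by name from the 51826 genes in the count table, and all 9 were among the 20407 genes tested. They were measured by poly-A RNA sequencing in 20 libraries of primary renal myofibroblasts from C57BL/6J mice. The 4 groups of 5 libraries are untreated wild-type (WT) cells, WT cells given TGFβ1, untreated WWP2-/- cells (labelled KO) and WWP2-/- cells given TGFβ1. WWP2-/- cells carry a germline loss of the E3 ubiquitin ligase WWP2 that removes its full-length and N isoforms. The labels give neither dose nor time, and the study's methods and legends give TGFβ1 at 5 ng/μl for 72 hours. All cells grew out of minced kidney pieces and were used at passage 2, so cells other than fibroblasts can be present. The labels do not say whether the 5 replicates of a group came from separate mice, and *P* values measure the spread between these libraries.

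BMPs belong to the TGFβ superfamily. They bind type I and type II receptor kinases, which phosphorylate SMAD1, SMAD5 and SMAD9, and these SMADs enter the nucleus with SMAD4. Id genes are classical direct targets of this arm. Their products lack a DNA-binding domain and hold basic helix-loop-helix factors inactive by pairing with E proteins. In the kidney, BMP7 and its relatives are known as a counterweight to TGFβ1, and gremlin 1, noggin and the chordin-like proteins bind BMPs outside the cell and keep them from their receptors.

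Depth ranged from 47520759 to 73063697 counts per library. *Wwp2* transcripts were lower in WWP2-/- libraries both with TGFβ1 (19.0 ± 1.72 against 53.5 ± 2.89 CPM, the count scaled to TMM library size, SD, *n*=5 each, log2 fold change −1.49, adjusted *P* = 1.05e-08, edgeR) and without it (log2 fold change −1.37). Of 4 textbook TGFβ1 response genes (*Ccn2*, *Postn*, *Acta2* and *Tgfbi*), 0 passed between treated and untreated cells of either genotype, beside 0% of all genes tested. In WT cells, 1 of the 4 had no overlap between treated and untreated libraries, beside 1.35% of all genes. It was *Acta2*, at 1016 to 1305 CPM untreated and 1432 to 2020 CPM with TGFβ1. In WWP2-/- cells, 0 of the 4 lacked overlap. A pair of WWP2-/- libraries, untreated replicate 3 and TGFβ1 replicate 1, stood apart from the rest. Their median correlation with their own group was 0.918 and 0.914, against at least 0.938 in the other 18, and they correlated most with each other (0.992). In this pair *Acta2*, the smooth muscle actin of myofibroblasts, lay at 38.9 and 50.4 CPM, against 1016 CPM or more in the other 18. *Xist*, which female cells transcribe from their silenced X, exceeded 1 CPM in 4 of the 5 WT libraries under either condition, but in 1 of the 5 treated and 2 of the 5 untreated WWP2-/- libraries. Both libraries of the pair that stands apart are among these, at 291 CPM (untreated replicate 3) and 225 CPM (TGFβ1 replicate 1) of *Xist*. Of the 11 libraries with *Xist*, 5 also held Y-linked transcripts above 1 CPM, so the split by *Xist* separates libraries with only Y-linked transcripts from libraries of either other kind. The WT libraries that lack *Xist*, untreated replicate 4 and TGFβ1 replicate 3, also correlated most with a WWP2-/- library. These values were 0.992 and 0.983, against at most 0.967 and 0.965 within their own groups. Values with and without the pair of WWP2-/- libraries, and within libraries that lack *Xist*, stand beside the results below.

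Levels of the 9 genes spanned a wide range. On a scale per length (RPKM), the median over untreated WT libraries was 203 for *Id3*, 55.0 for *Bmp4*, 52.8 for *Id1*, 43.2 for *Grem1*, 29.8 for *Bmp6*, 23.9 for *Id2*, 1.70 for *Nog*, 0.597 for *Chrdl1* and 0.299 for *Bmp2*. In this order the libraries of *Id3* lay above those of *Bmp4*, and those of *Id2* above those of *Nog*, whereas all other neighbours overlapped. *Bmp4* was thus the leading ligand and *Grem1* the leading antagonist by median among the 9 genes in untreated WT cells. In WWP2-/- cells given TGFβ1, *Id3* was again first (55.98 RPKM), but its libraries overlapped those of *Bmp4*.

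**Figure D1:**
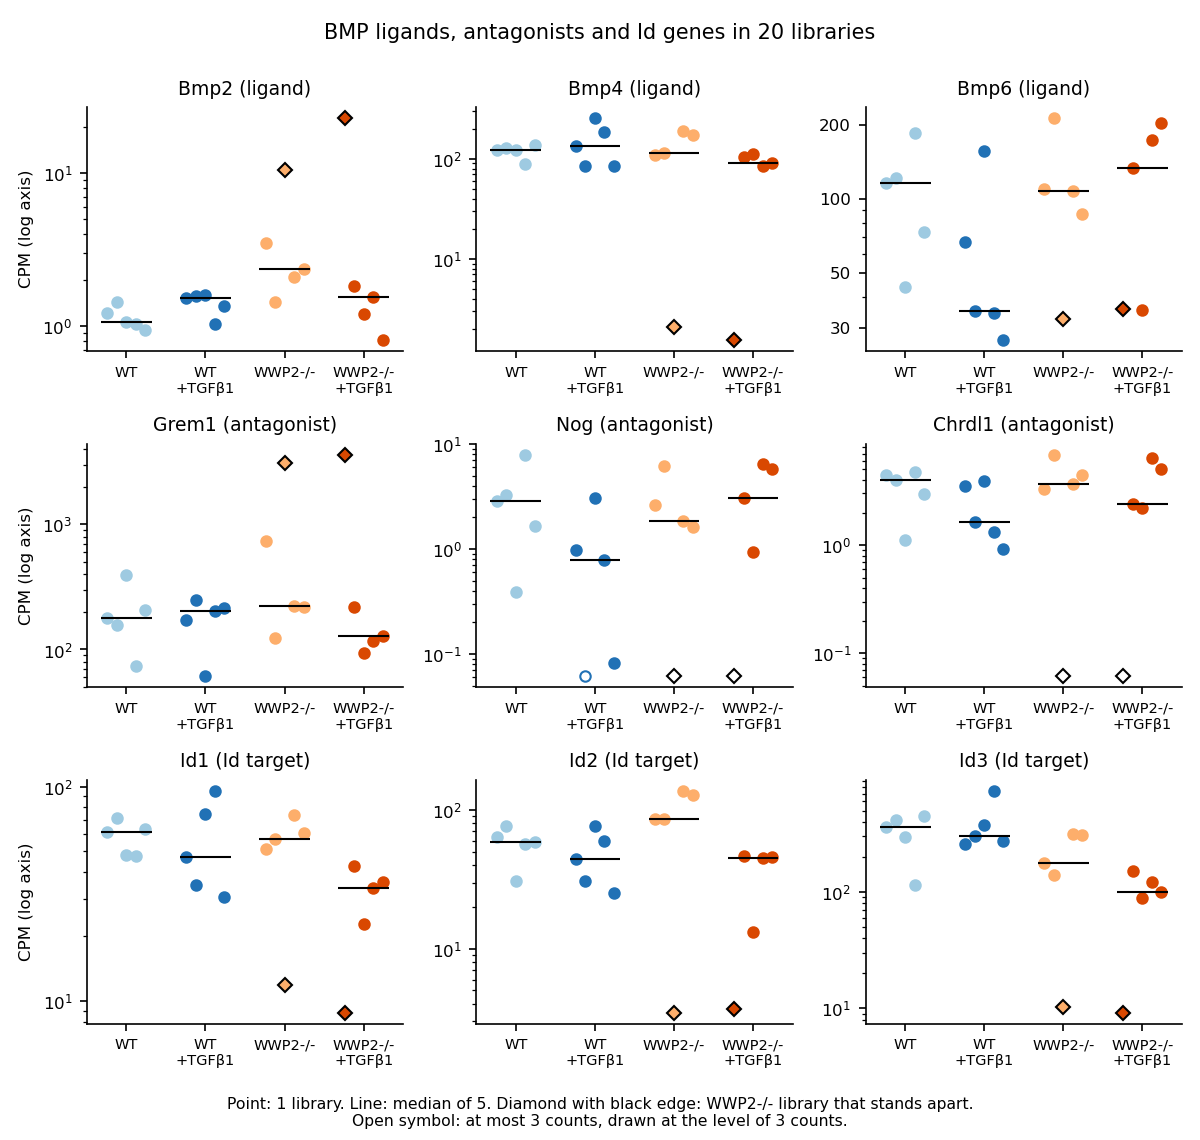
Expression of the 9 genes in each of the 20 libraries in CPM on log axes, by genotype and treatment. Lines are medians of 5 libraries, and the diamonds, which mark the 2 WWP2-/- libraries that stand apart, lie outside the range of the other 18 libraries for 8 of the 9 genes (2 above and 6 below).

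The plot of the 9 genes by library shows that the pair of WWP2-/- libraries set apart above had an extreme BMP profile. *Grem1* was at 3109 and 3609 CPM in them, against 61.0 to 739 CPM in the other 18 libraries, and *Bmp2* at 10.4 and 22.7 CPM, against 0.814 to 3.49 CPM. *Bmp4* was at 2.11 and 1.55 CPM, against at least 84.6 CPM elsewhere. *Nog* had 2 and 0 counts and *Chrdl1* 1 and 0 counts, all under the 3 counts that a count of 0 allows (at most 0.0613 CPM). The Id genes were at 8.81 and 11.9 CPM (*Id1*), 3.46 and 3.71 CPM (*Id2*) and 9.18 and 10.2 CPM (*Id3*), each below every other library. *Bmp6* alone stayed within the range of the others, at 32.7 and 35.997 CPM. Markers of other kidney cells were also at their lowest or close to it in the pair, with summed levels of 14.7 and 15.5 CPM for 10 tubular markers (other 18 libraries 31.6 to 623 CPM), 70.3 and 74.7 CPM for 8 macrophage markers (59.8 to 3836 CPM), 7.27 and 8.78 CPM for 8 endothelial markers (18.1 to 175 CPM), and 62.3 and 65.5 CPM for 6 podocyte markers (239 to 456 CPM). The sum of 10 fibroblast markers was at 4332 and 5322 CPM, also below the other 18 libraries (5953 to 35390 CPM), although *Dcn*, a proteoglycan of that list, was above all of them at 1147 and 1452 CPM. Their part in the BMP profile was not tested. Here and below, fewer cells of a type and less RNA per cell cannot be told apart in bulk libraries.

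Among the ligands, *Bmp2* (ENSMUSG00000027358, chromosome 2:133552159-133562885 of GRCm38), an osteogenic BMP, was low in all groups. Untreated WT libraries held 0.943, 1.04, 1.06, 1.21 and 1.45 CPM, and untreated WWP2-/- libraries 1.45, 2.09, 2.36, 3.49 and 10.4 CPM. The genotypes did not overlap, but the highest WT and the lowest WWP2-/- library were at nearly the same level (1.446 and 1.449 CPM), and 2.79% of all genes tested had no overlap in this comparison. The log2 fold change was 1.79 (standard error 0.77, adjusted *P* = 0.289, edgeR). Without the pair that stands apart it was 1.01 (standard error 0.26, adjusted *P* = 0.0645, range over 18 alternatives 0.0645 to 0.567, edgeR), again without overlap, beside 6.11% of all genes. With TGFβ1, WT libraries held 1.03, 1.35, 1.53, 1.58 and 1.60 CPM and WWP2-/- libraries 0.814, 1.21, 1.55, 1.85 and 22.7 CPM. Apart from the highest library, the groups lay within each other's range, and the log2 fold change of 1.99 ± 0.77 (SE, adjusted *P* = 0.122, edgeR) was −0.07 without replicate 1 of the treated WWP2-/- libraries. Among libraries that lack *Xist*, the untreated WT library was below all 3 WWP2-/- libraries (1.04 against 1.45 to 2.36 CPM), and the treated one lay within the 4 (1.60 against 0.814 to 1.85 CPM).

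*Bmp4* (ENSMUSG00000021835, chromosome 14:46383520-46390669), which acts in ureteric and nephron development, was at 121 ± 18.6 CPM in untreated WT, 149 ± 71.7 CPM in treated WT, 119 ± 74.5 CPM in untreated WWP2-/- and 78.4 ± 44.3 CPM in treated WWP2-/- libraries (SD, *n*=5 each). With TGFβ1, the WWP2-/- libraries held 1.55, 84.6, 90.3, 104 and 112 CPM and the WT libraries 85.6, 85.9, 134, 185 and 254 CPM, so the groups overlapped (log2 fold change −0.93, standard error 0.79, adjusted *P* = 0.501, edgeR), and without the pair that stands apart the log2 fold change was −0.62 (adjusted *P* = 0.147, edgeR). Among libraries that lack *Xist*, the WT library was above the WWP2-/- libraries with TGFβ1 (254 against 84.6 to 112 CPM) and below them untreated (89.6 against 116 to 191 CPM). Among untreated libraries with *Xist*, the 2 WWP2-/- libraries (2.11 and 109 CPM) lay below all 4 WT libraries (123 to 139 CPM). *Bmp6* (ENSMUSG00000039004, chromosome 13:38345107-38500302), which induces hepcidin in the liver, was at 108 ± 53.8, 64.2 ± 54.2, 110.2 ± 65.4 and 117 ± 77.8 CPM in the same order (SD, *n*=5 each). Its treated WT libraries were at 26.8, 34.6, 35.0, 67.3 and 157 CPM, and 2 of the 5 treated WWP2-/- libraries lay in that lower range, at 35.6 and 35.997 CPM. The other 3 were at 134, 174 and 203 CPM, and the log2 fold change of 0.86 ± 0.59 did not pass (SE, adjusted *P* = 0.388, edgeR), nor did that of 1.07 without the pair (adjusted *P* = 0.184, edgeR). In both conditions the WT library that lacks *Xist* lay within the *Bmp6* levels of the WWP2-/- libraries that lack it. The counting is not stated to use strand, and *Bmp4* overlaps *Gm15217* and *Gm15222*, and *Bmp6* overlaps *Txndc5* and *4930579J19Rik*, so their counts are less certain than those of the other 7 genes.

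Among the antagonists, *Grem1* (ENSMUSG00000074934, chromosome 2:113746164-113758646), which encodes the cystine-knot protein gremlin 1 and binds BMP2, BMP4 and BMP7, was the most abundant of the 3 members. Untreated WT libraries held 74.3, 157, 179, 206 and 393 CPM, and untreated WWP2-/- libraries 124, 217, 224, 739 and 3109 CPM. With TGFβ1, WT libraries held 61.0, 171, 202, 216 and 249.8 CPM, and WWP2-/- libraries 93.9, 117, 128, 217 and 3609 CPM. One WWP2-/- library in each comparison was far above the rest, and the other libraries overlapped. The log2 fold change was 2.21 with TGFβ1 (standard error 1.03, adjusted *P* = 0.193, edgeR) and 2.13 without it (standard error 1.03, adjusted *P* = 0.341, edgeR). Without the pair that stands apart, it was −0.37 with TGFβ1 (standard error 0.51, adjusted *P* = 0.659, edgeR) and 0.66 untreated (standard error 0.51, adjusted *P* = 0.542, edgeR). Within libraries that lack *Xist*, the single WT library lay below all WWP2-/- libraries, at 61.0 against 93.9 to 217 CPM with TGFβ1 (4 libraries) and at 74.3 against 124 to 224 CPM untreated (3 libraries). With *Xist* as a covariate and all 20 libraries, *Grem1* passed in both comparisons (log2 fold changes 2.73 and 2.54, adjusted *P* = 0.00929 and 0.0160, edgeR), and over 18 alternatives the adjusted *P* ranged from 0.00929 to 0.786 and from 0.0160 to 0.787. The fit with the covariate kept the pair that stands apart, and the only treated WWP2-/- library with *Xist* is the one at 3609 CPM. A fit with the covariate and without the pair was not run. The share of all genes that passed with this covariate is not given here.

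*Nog* (ENSMUSG00000048616, chromosome 11:89300638-89302332), the gene of noggin, and *Chrdl1* (ENSMUSG00000031283, chromosome X:143285674-143394262), a BMP4 antagonist, were scarce and varied over a wide range within every group. *Nog* was at 0.388, 1.66, 2.89, 3.28 and 7.90 CPM in untreated WT and 0.0601, 0.0817, 0.788, 0.988 and 3.05 CPM in treated WT libraries. In WWP2-/- libraries it was at 0.0403, 1.62, 1.86, 2.62 and 6.19 CPM untreated and 0, 0.928, 3.03, 5.82 and 6.49 CPM with TGFβ1. Every comparison overlapped, and the largest log2 fold change of *Nog* between genotypes, 1.71 with TGFβ1, had a 95% confidence interval of −0.79 to 4.21 (adjusted *P* = 0.398, edgeR). *Chrdl1* lay between 0.919 and 6.85 CPM outside the pair that stands apart, with log2 fold changes between genotypes of 0.51 with TGFβ1 (standard error 0.95, adjusted *P* = 0.790, edgeR) and 0.08 untreated (standard error 0.94, adjusted *P* = 0.976, edgeR). Without the pair, the log2 fold changes with TGFβ1 were 2.001 for *Nog* (adjusted *P* = 0.139, edgeR) and 0.82 for *Chrdl1* (adjusted *P* = 0.239, edgeR), and neither passed. The WT library that lacks *Xist* lay within the range of the WWP2-/- libraries that lack it for both genes, except untreated for *Nog* (7.90 against 1.62 to 6.19 CPM). With TGFβ1, some markers of other cells had values of the same sign. All 8 macrophage markers (median log2 fold change 2.52) and all 7 tested tubular markers (median 1.56) were positive, with 0 passing in either list in edgeR (8 and 1 at an unadjusted *P* below 0.05). Of the endothelial markers, 6 of 8 were positive (median 0.70, 2 called lower). Of the podocyte markers, 4 of 6 were negative (median −0.32, 1 called lower). Untreated, all 8 macrophage markers were negative (median −0.84, 0 called). The part of these markers in the values of *Bmp6*, *Nog* and *Chrdl1* was not tested.

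Upstream sequence is shown for 4 of the 9 genes, *Grem1* and *Bmp4* because they were at opposite extremes in the pair that stands apart, and *Id2* and *Id3* because they are BMP targets. The windows end 1 base before the RefSeq start on GRCm38.p6, as given in RefSeq, and capitals mark SMAD-binding motifs found on either strand (GGCGCC or GGAGCC). *Bmp6* had none of these motifs in its 250 bases, which all lie in exons of *Bmp6* in GENCODE M21, and *Bmp2*, *Nog*, *Chrdl1* and *Id1* were not matched. The 2 motifs do not overlap each other, and GTCTAGAC, the palindrome of SMAD3 and SMAD4, was in none of the 5 windows. *Grem1* is at chr2:113758649-113758898, minus strand, and *Bmp4* at chr14:46390670-46390919, minus strand. The windows of *Id2* and *Id3* overlap exons of their own gene in GENCODE M21 by 161 and 250 of 250 bases. Only 30 bases around a motif are given for them, at chr12:25096306-25096335 (minus strand) and chr4:136143623-136143652 (plus strand). The *Id3* stretch lies in exons over all 30 bases, and the *Id2* stretch over 0.
Grem1: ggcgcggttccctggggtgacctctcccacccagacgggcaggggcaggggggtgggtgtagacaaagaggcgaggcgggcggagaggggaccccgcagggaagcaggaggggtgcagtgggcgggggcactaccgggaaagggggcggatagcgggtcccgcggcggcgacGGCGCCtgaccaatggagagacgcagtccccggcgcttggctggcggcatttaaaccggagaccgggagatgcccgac
Bmp4: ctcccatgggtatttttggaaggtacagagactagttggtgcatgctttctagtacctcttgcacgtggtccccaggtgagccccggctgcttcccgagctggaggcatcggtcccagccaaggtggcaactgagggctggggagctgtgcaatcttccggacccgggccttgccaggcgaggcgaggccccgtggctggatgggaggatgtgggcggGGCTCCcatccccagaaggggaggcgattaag
Id2: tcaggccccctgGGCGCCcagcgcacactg
Id3: cctcgcatccgaGGCTCCgctgtcctcggc

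The GGCGCC motif starts 78 bases before the start of *Grem1* and 231 bases before that of *Id2*, and 9.59% of 32851 RefSeq windows of the same length hold it. GGAGCC, on the opposite strand where it reads GGCTCC, starts at −32 in *Bmp4* and at −187 in *Id3*, and *Id2* has a further copy at −88, whereas 26.0% of all windows hold it. GTCTAGAC was in 0.167% of all windows.

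Among the Id genes, *Id3* (ENSMUSG00000007872, chromosome 4:136143497-136145755) was the most abundant of these 3 and showed the widest gap between treated genotypes among them. With TGFβ1, WT libraries held 260.0, 275, 299.8, 375 and 738 CPM, and WWP2-/- libraries 9.18, 88.2, 100.3, 122 and 152 CPM. All 5 WWP2-/- libraries lay below all 5 WT libraries, which also held for 5.67% of all genes tested in either direction. The log2 fold change was −2.05 (standard error 0.69, 95% confidence interval −3.49 to −0.60, adjusted *P* = 0.0789, edgeR), short of the threshold of 0.05. Without the pair that stands apart it was −1.77 (standard error 0.41, adjusted *P* = 0.0126, edgeR) and passed, at 115 ± 27.9 CPM (SD, *n*=4) against 389.6 ± 199.5 CPM (SD, *n*=5). These 4 WWP2-/- libraries all lack *Xist*, whereas 4 of the 5 WT libraries have it, so genotype and *Xist* are largely confounded there. In that fit 16.9% of all genes passed (9.41% lower and 7.51% higher in WWP2-/- cells) and 11.4% did not overlap. The Wald test of DESeq2 on all libraries also called it (log2 fold change −2.06, adjusted *P* = 0.0204), and over 18 alternatives the log2 fold change ranged from −3.16 to −1.69 and the adjusted *P* from 0.0126 to 0.177. The share of all genes that DESeq2 called is not given here. The 1 treated WT library that lacks *Xist* was at 375 CPM, above the 4 WWP2-/- libraries that lack it (88.2 to 152 CPM). Fibroblast markers had values of the same sign in this comparison, with 9 of 10 negative (median log2 fold change −2.12) and 2 called (*Col1a2* and *Col1a1*, log2 fold changes −2.63 and −1.98), while the macrophage and tubular markers were positive as given above. Their part in the values of *Id3* was not tested.

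Untreated, *Id3* was at 115, 295, 363, 413 and 451 CPM in WT and at 10.2, 139.9, 176, 309 and 318 CPM in WWP2-/- libraries, and the groups overlapped (log2 fold change −0.78, standard error 0.67, adjusted *P* = 0.603, edgeR). Here the lowest WT library was the one that lacks *Xist*, at 115 CPM, below the 3 WWP2-/- libraries that lack it (139.9 to 318 CPM). The order of the genotypes among libraries without *Xist* was thus opposite to that with TGFβ1, from 1 WT library on each side. Among untreated libraries with *Xist*, the 2 WWP2-/- libraries (10.2 and 176 CPM) lay below all 4 WT libraries (295 to 451 CPM), and the lower of the 2 belongs to the pair.

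*Id1* (ENSMUSG00000042745, chromosome 2:152736251-152737410) was at 30.5, 34.8, 47.1, 74.7 and 95.5 CPM in treated WT and at 8.81, 22.8, 33.8, 35.9 and 42.5 CPM in treated WWP2-/- libraries. The groups overlapped, and the log2 fold change of −0.97 ± 0.43 (SE, adjusted *P* = 0.169, edgeR) did not pass, nor did that of −0.76 without the pair (adjusted *P* = 0.0812, edgeR). *Id2* (ENSMUSG00000020644, chromosome 12:25093799-25097140) was at 25.3, 30.8, 44.5, 59.7 and 77.2 CPM in treated WT and at 3.71, 13.2, 45.3, 45.7 and 46.2 CPM in treated WWP2-/- libraries (log2 fold change −0.62, standard error 0.67, adjusted *P* = 0.607, edgeR, and −0.36 without the pair). Among libraries that lack *Xist*, the treated WT library was above all 4 WWP2-/- libraries for both genes, at 74.7 against 22.8 to 42.5 CPM for *Id1* and at 77.2 against 13.2 to 46.2 CPM for *Id2*, and untreated it was below all 3. Among untreated libraries with *Xist*, the genotypes overlapped for both genes. Untreated, *Id2* had values opposite to *Id3*. Outside the pair that stands apart, the 4 untreated WWP2-/- libraries (85.5, 86.6, 128 and 137 CPM) lay above all 5 WT libraries (30.9, 57.3, 58.4, 63.7 and 76.9 CPM), with a log2 fold change of 0.91 ± 0.37 that did not pass (SE, adjusted *P* = 0.207, edgeR), beside 6.11% of all genes without overlap, whereas with replicate 3 at 3.46 CPM the groups overlapped and it was 0.62 (adjusted *P* = 0.686, edgeR). Of the Id genes, *Id1* had the smallest untreated difference, with a log2 fold change of −0.20 (95% confidence interval −1.09 to 0.69).

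**Figure D2:**
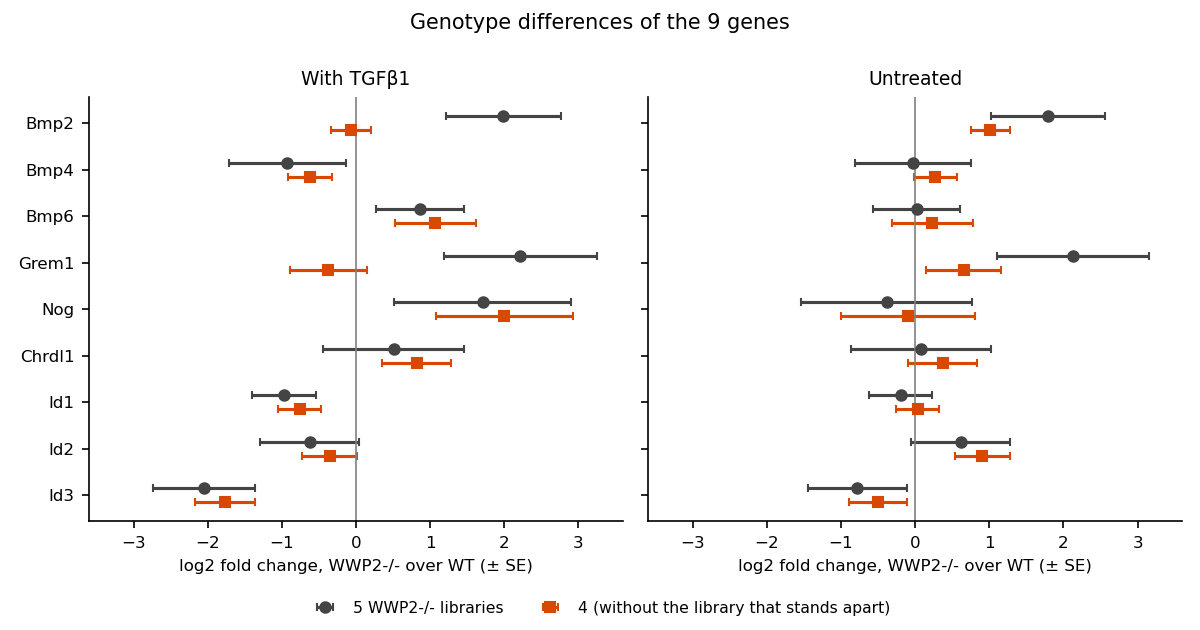
Log2 fold change of WWP2-/- over WT for the 9 genes with TGFβ1 (left) and untreated (right), with bars of 1 standard error from the edgeR fit. Grey circles use all 20 libraries and orange squares leave out the 2 that stand apart: *Grem1* and *Bmp2* move to −0.37 and −0.07 with TGFβ1, while *Id3* stays at −1.77.

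Between genotypes with TGFβ1, 0 of the 9 genes passed an adjusted *P* of 0.05 in edgeR, beside 6.07% of all genes tested. At an unadjusted *P* below 0.05 there were 4 of 9 (*Bmp2* and *Grem1* higher, *Id1* and *Id3* lower), beside 24.7% of all genes, and the Wald test of DESeq2 called 1 (*Id3*). Untreated, 0 of 9 passed, beside 0.725% of all genes (0.103% higher and 0.622% lower in WWP2-/- cells), with 1 of 9 (*Bmp2*) at an unadjusted *P* below 0.05, beside 14.9%, and 0 by DESeq2. Without the pair that stands apart, again 0 of 9 passed untreated in edgeR, beside 1.32% of all genes (0.5% higher and 0.823% lower). The median log2 fold change with TGFβ1 was 0.86 over the 3 ligands, 1.71 over the 3 antagonists and −0.97 over the 3 Id genes, beside 0.05 over all genes. The plot of genotype differences shows that the positive values of *Bmp2* and *Grem1* with TGFβ1 rested on 1 library, and that all 3 Id genes had negative values with and without it.

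The comparisons of TGFβ1 with no treatment ask how the cells responded within each genotype. In WT cells, 0 of the 9 genes passed, beside 0% of all genes, 0 of 9 had an unadjusted *P* below 0.05 in edgeR, beside 6.85%, and DESeq2 called 0. *Nog* had the largest difference, with a log2 fold change of −1.70 (95% confidence interval −4.20 to 0.80), and *Id1* the smallest, at −0.04 (95% confidence interval −0.93 to 0.85). In WWP2-/- cells, 0 of 9 passed, beside 0% of all genes, and DESeq2 called 0. At an unadjusted *P* below 0.05 there was 1, *Id2*, beside 3.49% of all genes. *Id2* went from 3.46, 85.5, 86.6, 128 and 137 CPM untreated to 3.71, 13.2, 45.3, 45.7 and 46.2 CPM with TGFβ1, a log2 fold change of −1.51 ± 0.68 (SE, adjusted *P* = 1, edgeR). Its 2 lowest values in these groups are those of the pair that stands apart, so the groups overlapped, as did those of all but 0.377% of genes, while the other 4 treated libraries lay below the other 4 untreated ones. The share of all genes without overlap between these 4 and 4 libraries was not computed. *Id3* and *Id1* had log2 fold changes of −1.02 and −0.82 in the same comparison (adjusted *P* = 1 each, edgeR). The interaction of genotype and TGFβ1 passed for 0 of 9 genes, beside 0% of all genes, with 0 of 9 at an unadjusted *P* below 0.05, beside 6.98%, and 0 by DESeq2, so a response that differs between genotypes was not shown for any of them. The intervals were wide, from −3.24 to 0.71 for *Id3* and from −1.37 to 5.56 for *Nog*.

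Of 52 other genes of the pathway listed here, 45 were tested. With TGFβ1, 8 of them differed between genotypes at an adjusted *P* below 0.05 in edgeR, each lower in WWP2-/- cells, beside 3.96% of all genes lower and 2.10% higher. By role, these were 1 of 8 ligands, 2 of 11 antagonists, 0 of 10 receptors and coreceptors, 1 of 4 SMADs, 4 of 9 targets and feedback inhibitors, and 0 of 3 E proteins. The median log2 fold change was −1.29 over the 9 targets and feedback inhibitors and −0.29 over all 45. Without the pair that stands apart, 16 of the 45 passed (2 higher and 14 lower), beside 16.9% of all genes, among them all 8, whereas with *Xist* as a covariate 4 passed (*Chrd*, *Smad9*, *Atoh8* and *Smad6*). The fit without the pair holds no treated WWP2-/- library with *Xist*, so genotype and *Xist* are largely confounded in it. The share of all genes that passed with *Xist* as a covariate is not given here. The fibroblast markers given with *Id3* were negative alongside these genes, and their part was not tested. Among libraries that lack *Xist*, the WT library was above all WWP2-/- libraries for 7 of the 8 genes with TGFβ1 and below all of them for 6 of the 8 untreated, from 1 WT library each. The 8 genes were called lower with these same treated libraries, so the order with TGFβ1 follows in part from that choice. The share of all genes with either order was not computed. The targets include *Id4*, the fourth Id gene.

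**Figure D3:**
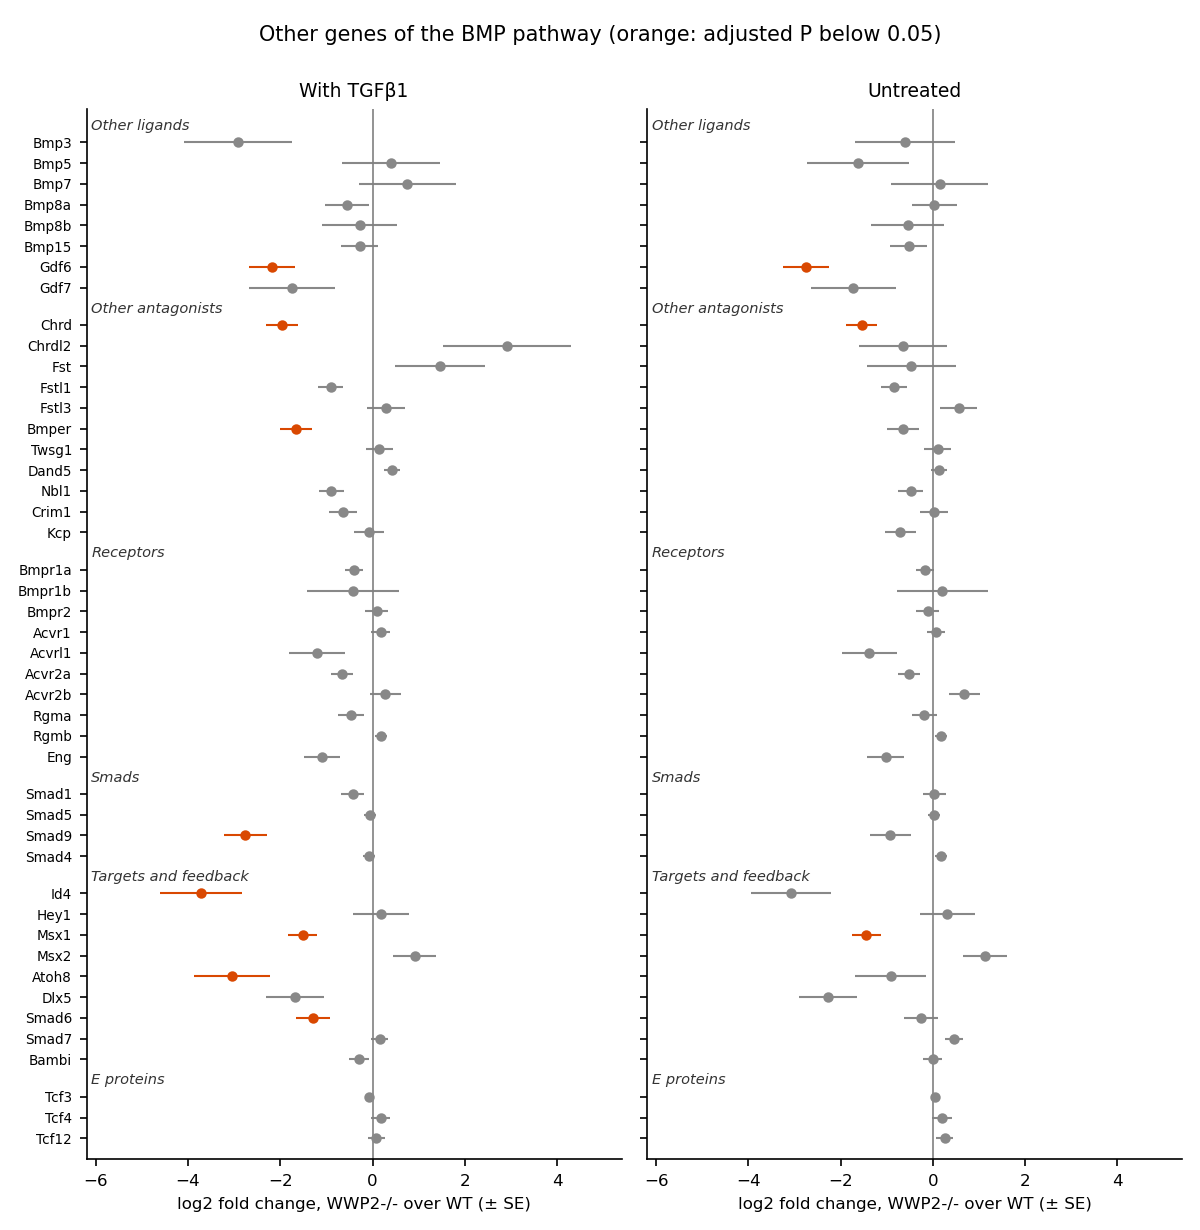
Log2 fold change of WWP2-/- over WT for the 45 other pathway genes tested, with TGFβ1 (left) and untreated (right), by role, with bars of 1 standard error from the edgeR fit on 20 libraries. Orange points passed an adjusted *P* of 0.05: 8 with TGFβ1 and 3 untreated, each at a negative value.

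Among those targets, *Id4*, which pairs with the same E proteins as *Id3*, was at 12.2, 34.5, 41.7, 56.9 and 99.1 CPM in treated WT and at 0.185, 2.18, 3.33, 6.25 and 6.65 CPM in treated WWP2-/- libraries, without overlap (log2 fold change −3.72, standard error 0.89, adjusted *P* = 0.0221, edgeR, and −3.42 without the pair). *Msx1*, a homeobox gene, had a log2 fold change of −1.52 (adjusted *P* = 0.0133, edgeR), and *Atoh8*, a helix-loop-helix factor, had a log2 fold change of −3.05 (adjusted *P* = 0.0356, edgeR). Like *Id4*, neither overlapped between genotypes, as was so for 5.67% of all genes. *Smad6*, the inhibitory SMAD of the BMP arm, was also called at a log2 fold change of −1.29 (adjusted *P* = 0.0473, edgeR) and is named here after its values were seen. *Smad7*, which inhibits both arms, was at 0.15 (95% confidence interval −0.25 to 0.55), and *Bambi*, a pseudoreceptor, at −0.29 (95% confidence interval −0.74 to 0.16), and neither passed. The plot of the other pathway genes shows these targets on both sides of 0.

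*Smad9*, a receptor-regulated SMAD, held 9.60, 11.3, 13.6, 18.2 and 27.5 CPM in treated WT and 1.43, 2.10, 2.37, 2.66 and 3.29 CPM in treated WWP2-/- libraries (log2 fold change −2.76, standard error 0.47, adjusted *P* = 0.00639, edgeR). Among libraries that lack *Xist*, the WT library was above the WWP2-/- libraries with TGFβ1 (27.5 against 1.43 to 3.29 CPM) and below them untreated (2.72 against 3.66 to 10.5 CPM). *Smad1* and *Smad5*, the other SMADs of this arm, had log2 fold changes of −0.43 (95% confidence interval −0.95 to 0.09) and −0.06 (95% confidence interval −0.32 to 0.21). Among the antagonists, *Chrd* (chordin) had a log2 fold change of −1.96 (adjusted *P* = 0.00732, edgeR) and *Bmper* of −1.66 (adjusted *P* = 0.0133, edgeR). The ligand *Gdf6*, which acts in joint formation, had a log2 fold change of −2.18 (adjusted *P* = 0.0164, edgeR). The groups of *Gdf6* overlapped through the WT library without *Xist*, at 5.91 CPM against 6.18 to 11.4 CPM in WWP2-/- libraries without *Xist*, whereas the 4 WT libraries with *Xist* were at 38.4 to 56.9 CPM.

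Untreated, 3 of the 45 genes passed, all lower in WWP2-/- cells (0.622% of all genes). They were *Gdf6* (log2 fold change −2.75, adjusted *P* = 0.0214, edgeR), *Chrd* (−1.54, adjusted *P* = 0.0432, edgeR) and *Msx1* (−1.44, adjusted *P* = 0.0432, edgeR), and 5 passed without the pair that stands apart. For *Chrd* and *Msx1* the untreated WT library that lacks *Xist* was not above the WWP2-/- libraries that lack it, at 4.22 against 4.88 to 5.50 CPM and at 0.900 against 0.682 to 0.933 CPM. The count of 3 fell to 0 in 6 of the 10 fits that left out 1 library of these groups, and it was 7 without WT replicate 4, the library without *Xist*. Between treated and untreated cells, 0 of 45 passed in WT and 0 in WWP2-/- cells, with 3 at an unadjusted *P* below 0.05 in each (edgeR), beside 6.85% and 3.49% of all genes, and 0 by DESeq2.

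The relation between ligands, antagonists and Id genes across cultures was described with log2 CPM after subtracting each group's mean. Because the pair that stands apart forms a cluster of its own, values are given over the other 18 libraries. Of 36 pairs of genes, 11 had an adjusted *P* below 0.05 for Pearson's *r* (permutation test with 100000 resamples within groups, two-sided, Benjamini–Hochberg over 36), 9 positive and 2 negative. The share among pairs of other genes was not computed, so this count cannot be set against a background. All libraries of a group share its culture conditions, and neither the sex of the cells nor the mix of cells was held constant. The permutation takes libraries of different groups as independent. However, untreated replicate 2 and treated replicate 5 of WWP2-/- cells deviated together (*r* = 0.766), as did untreated replicate 4 and treated replicate 3 of WT cells (0.727). If such libraries share a mouse or culture, which was not tested, the *P* values are too small.

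*Bmp6*, *Nog* and *Chrdl1* went together, with *r* = 0.889 for *Bmp6* and *Nog* (adjusted permutation *P* = 0.000720, Spearman's rho 0.889), 0.850 for *Bmp6* and *Chrdl1* (adjusted permutation *P* = 0.000720, rho 0.870) and 0.831 for *Nog* and *Chrdl1* (adjusted permutation *P* = 0.00367, rho 0.833). Without the 2 libraries farthest from the median of the first gene of each pair they were 0.930, 0.819 and 0.857, and in the 7 WWP2-/- libraries without *Xist* 0.968, 0.767 and 0.876. Tubular and macrophage markers also varied widely over the same libraries. The summed level of 10 tubular markers was 31.6 to 345 CPM in untreated WT, 36.1 to 176 CPM in treated WT, 15.5 to 623 CPM in untreated WWP2-/- and 14.7 to 467 CPM in treated WWP2-/- libraries, and that of 8 macrophage markers 148 to 3836, 59.8 to 418, 74.7 to 1692 and 70.3 to 3396 CPM. Of the tubular markers, *Slc34a1* and *Aqp2* had at most 3 counts in every library, while *Cdh16* and *Pax8* reached 366 and 195 CPM. Their part in the shared variation was not tested.

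**Figure D4:**
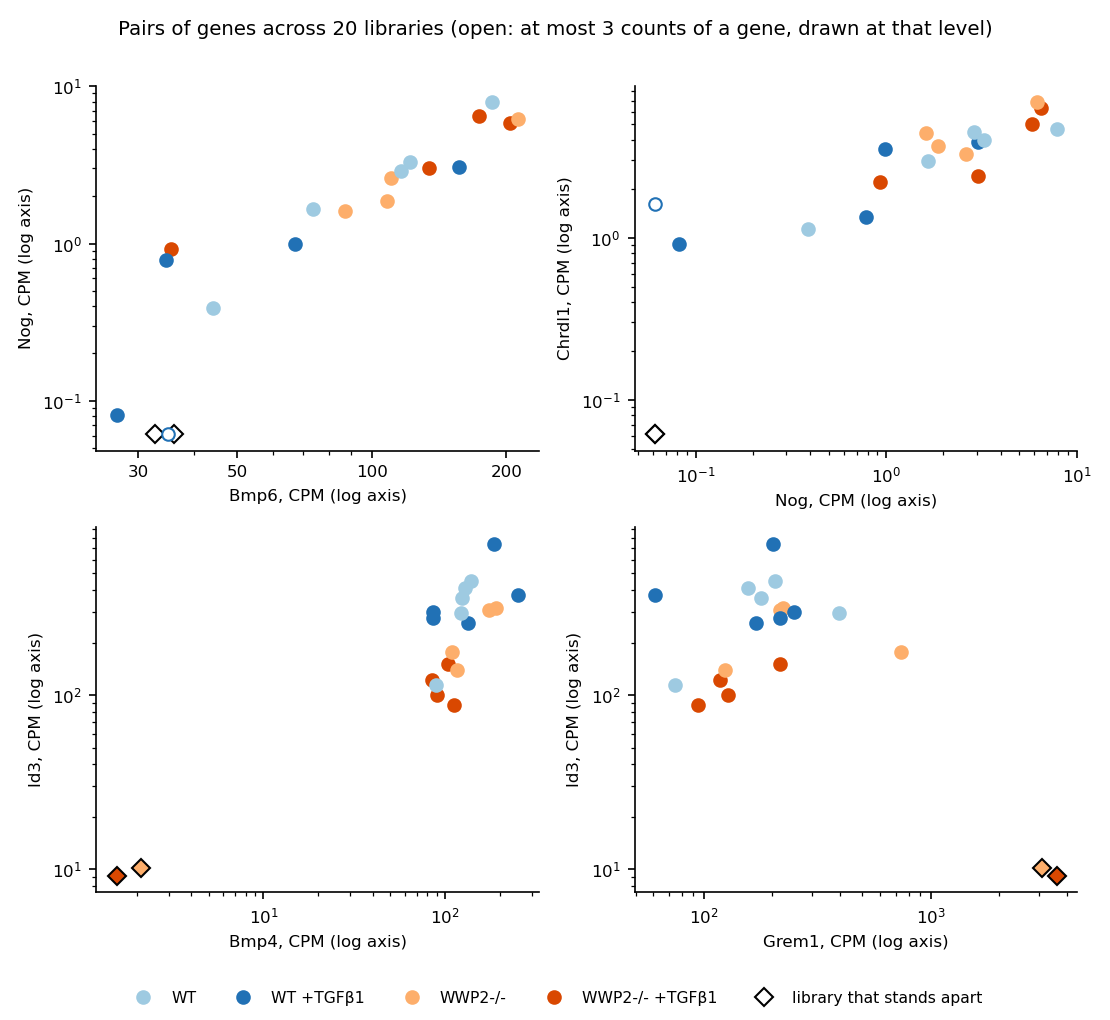
Levels of 4 pairs of genes in the 20 libraries, in CPM on log axes, coloured by group. *Bmp6*, *Nog* and *Chrdl1* rise together over the libraries, whereas the diamonds, the 2 WWP2-/- libraries that stand apart, lie alone at low *Bmp4*, high *Grem1* and low *Id3*.

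*Id1* went with *Id2* (*r* = 0.822, adjusted permutation *P* = 0.00162, rho 0.899) and with *Id3* (*r* = 0.690, adjusted permutation *P* = 0.00162, rho 0.756), and without the farthest 2 libraries these were 0.881 and 0.541. *Bmp4* went with *Id1* (*r* = 0.748, adjusted permutation *P* = 0.0418, rho 0.740) and with *Id3* (*r* = 0.615, adjusted permutation *P* = 0.0327, rho 0.728). Without the farthest 2 libraries these were 0.7005 and 0.732, but in the 7 WWP2-/- libraries without *Xist* the values were 0.0548 and 0.676, so the relation of *Bmp4* to *Id1* did not hold within them. *Bmp6* and *Nog* also went with *Id2* by Pearson's *r* (0.732 and 0.728, adjusted permutation *P* = 0.0327 and 0.0195), but not by Spearman's rho (0.525 and 0.509, adjusted permutation *P* = 0.152 each). The 2 negative pairs were *Grem1* with *Chrdl1* (*r* = −0.665, adjusted permutation *P* = 0.0195, rho −0.626) and with *Nog* (*r* = −0.609, adjusted permutation *P* = 0.0327, rho −0.538 with adjusted permutation *P* = 0.119). Without the farthest 2 libraries they were −0.633 and −0.622, and in the 7 WWP2-/- libraries without *Xist* −0.404 and −0.137. *Grem1* and *Id3* show how far the pair that stands apart decides a value: *r* was −0.70 over all 20 libraries and 0.28 (adjusted permutation *P* = 0.512) over the other 18, and for *Bmp2* and *Bmp4* it was −0.89 and −0.04. The plot of gene pairs shows this for *Grem1* and *Id3*, as a diagonal that exists between the pair and the rest but not among the rest. *Bmp2* and *Bmp4* are not plotted against each other.

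The genes most like each member over the 20 libraries were sought among 13518 genes with a mean of at least 1 CPM, by Pearson's *r* of log2 CPM, as a description only. Since the pair that stands apart enters these values, *r* over the other 18 libraries is given second. *Id3* was most like *Atoh8* (0.98 and 0.95) and *Hey2* (0.97 and 0.90), both helix-loop-helix factors. *Bmp6* was most like *Timd2* (0.97 and 0.96) and *Lrrtm1* (0.97 and 0.96), and *Nog* like *Fmnl1* (0.98 and 0.97) and the leukocyte integrin *Itgax* (0.97 and 0.96). *Bmp4* was most like *Fhl1* (0.98 and 0.61) and *Sardh* (0.98 and 0.59), so its likeness rested largely on the pair. *Grem1* was most like *Pvr* (0.94 and 0.78) and *Tbx3* (0.94 and 0.83), and *Bmp2* like *9130008F23Rik* (0.94 and 0.82) and *Hmga1* (0.94 and 0.76). *Chrdl1* was most like the tight junction gene *Cldn1* (0.97 and 0.83) and *Cobl* (0.97 and 0.90), *Id1* like *Abcb9* (0.94 and 0.82) and *Myl6* (0.94 and 0.82), and *Id2* like *Rras2* (0.96 and 0.88) and *Cryab* (0.94 and 0.82).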

How the data were processed

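STAR was used by the authors to align the read pairs (GRCm38). They counted reads on exons with featureCounts and deposited whole-number counts per gene without normalization. The strand setting is not given in the sources used here. Gene positions and exon lengths came from GENCODE M21 on GRCm38. A gene was tested if 5 or more libraries each held 5 or more of its counts (20407 genes with 99.98% of all counts). With R 4.3.3, edgeR 4.0.16 (TMM, glmQLFit, glmQLFTest) fitted all 20 libraries with 4 groups and no block, with Benjamini–Hochberg adjustment over all genes tested. CPM used TMM library sizes, log2 CPM a prior count of 2, and RPKM the summed exon length. Named genes were the 9 members, *Wwp2*, 4 response genes and up to 3 called genes per role and comparison, and any other gene was named after its values were seen. Members, lists and tests were chosen with earlier results of these data known. Alternatives were the Wald test of DESeq2 1.42.0, its size factors, other filters, a replicate block, *Xist* as a covariate, only the groups compared and leaving out each library. Leaving out the pair that stands apart, and an adjusted *P* of 0.01, were added after seeing the data. The tests were run on simulated data first. Some genes of these lists are not reported here and are left out of their counts. No libraries were identical. Confidence intervals come from the edgeR fit and include the spread between libraries, and floors of 3 counts cover counting error only.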

Additional observations from a re-analysis of the deposited data

Results flagged for a closer look

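Of 36 sets of 5 libraries (9 genes in 4 groups), 6 held a library far from the other 4, by a gap to its nearest neighbour above 0.71 of the whole range, and chance gives about 1 in 20. In WWP2-/- cells given TGFβ1, replicate 1 was at 22.7 CPM of *Bmp2* (the other 4 at most 1.85 CPM), at 3609 CPM of *Grem1* (at most 217 CPM) and at 1.55 CPM of *Bmp4* (at least 84.6 CPM). In untreated WWP2-/- cells, replicate 3 was at 10.4 CPM of *Bmp2* (at most 3.49 CPM) and 3109 CPM of *Grem1* (at most 739 CPM). These 5 values come from the pair of libraries that stands apart. In WT cells given TGFβ1, replicate 4 was at 738 CPM of *Id3*, with 375 CPM in the next library, and without it the log2 fold change of *Id3* between treated genotypes was −1.69 (adjusted *P* = 0.177, edgeR).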

How the results depend on the processing

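Of 45 log2 fold changes (9 genes in 5 comparisons) under 872 alternatives, 807 kept their direction and side of the threshold, 4 newly passed and 61 changed direction, over 22 of the 45. The cause was not tested. Of the 9 genes, 1 passed with TGFβ1 by the Wald test of DESeq2 (*Id3*, lower), 1 with *Xist* as a covariate (*Grem1*, higher) and 1 without the pair that stands apart (*Id3*, lower), and 1 passed untreated with *Xist* as a covariate (*Grem1*, higher). Of the 45 other pathway genes, 8 with TGFβ1 became 4 with *Xist*, 16 without the pair, 2 at an adjusted *P* of 0.01, and 5 (without WWP2-/- replicate 2 or WT replicate 4) to 11 (without WT replicate 3) when 1 library was left out. The 3 untreated ones became 5 by DESeq2, 5 without the pair, 0 with the replicate block, with *Xist*, with only the groups compared or at 0.01, and 0 to 7 when 1 library was left out. The shares of all genes that passed by DESeq2 and with *Xist* are not given, so these counts cannot be set against them. The count of 34 correlated pairs over 20 libraries became 11 over 18.

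Without the pair, log2 fold changes reversed to −0.0718 (*Bmp2*) and −0.37 (*Grem1*) between treated genotypes, 0.27 (*Bmp4*) and 0.0328 (*Id1*) untreated, −0.78 (*Bmp2*) for TGFβ1 in WWP2-/- cells, and −1.09 (*Bmp2*) and −1.03 (*Grem1*) for the interaction. With *Xist* they reversed to −0.0257 (*Bmp6*), −0.19 (*Nog*) and −1.40 (*Chrdl1*) between treated genotypes, −0.70 (*Bmp6*), −1.32 (*Chrdl1*) and −0.46 (*Id2*) untreated, −0.23 (*Bmp6*) and −0.50 (*Nog*) for TGFβ1 in WWP2-/- cells, and −0.0706 (*Bmp2*) and −0.0803 (*Chrdl1*) for the interaction. With the replicate block they reversed to −0.0033 (*Chrdl1*) untreated, 0.34 (*Grem1*) for TGFβ1 in WT and −0.18 (*Bmp2*) in WWP2-/- cells, and −0.46 (*Bmp2*) and −0.78 (*Grem1*) for the interaction. Libraries with the same number deviated together with *r* of −0.52 to 0.30 in WT and −0.19 to 0.28 in WWP2-/- cells. Across genotypes it was −0.0213 to 0.443 untreated and −0.417 to 0.126 with TGFβ1. Not every pair exceeded 0.1 in any of these, so the replicate number was not taken as a pairing, and with the block 0 of the 9 genes passed. Treated and untreated libraries with unlike numbers had *r* of −0.482 to 0.727 in WT and −0.675 to 0.907 in WWP2-/- cells. The highest were untreated replicate 4 with treated replicate 3 in WT, and untreated 3 with treated 1 in WWP2-/- cells. Whether such libraries share a mouse or culture was not tested.

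With 1 library left out, the values that changed direction ranged from −0.0717 to 2.27 (*Bmp2*) and −0.37 to 2.49 (*Grem1*) between treated genotypes, and from −0.26 to 0.29 (*Bmp4*), −0.39 to 0.31 (*Bmp6*), −1.09 to 0.26 (*Nog*), −0.31 to 0.40 (*Chrdl1*) and −0.37 to 0.0558 (*Id1*) untreated. For TGFβ1 in WT cells they ranged from −0.38 to 0.21 (*Grem1*), −0.33 to 0.12 (*Id1*) and −0.13 to 0.40 (*Id3*). For TGFβ1 in WWP2-/- cells they ranged from −1.54 to 1.26 (*Bmp2*), −0.21 to 0.48 (*Bmp6*), −2.66 to 1.35 (*Grem1*), −0.0131 to 1.09 (*Nog*) and −0.59 to 0.17 (*Chrdl1*), and for the interaction from −1.84 to 0.95 (*Bmp2*) and −2.47 to 1.52 (*Grem1*). *Nog* and *Chrdl1* had at most 2 counts each in the pair that stands apart, so their levels there are not resolved from 0. The depth of the pair was 48658418 and 61152909 counts. Treated WT replicate 3, at 47520759 counts, held 153 counts of *Nog* and 194 of *Chrdl1*.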
